A study of Mus musculus with 24 samples.

Results

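The genes described here encode pattern-recognition proteins of liver and blood: the pentraxins Crp and Apcs, the mannose-binding collectins Mbl1 and Mbl2, the lipopolysaccharide-binding protein Lbp, and Cd14, which takes lipopolysaccharide over from LBP. They were chosen by name, and all 6 were found, each once, among the 75794 features read from the authors' deposited table. Liver RNA was sequenced in 4 groups of 6 mice. All were Ghr-floxed (GHRfl/fl) C57BL/6 mice on chow, labelled male and aged 10 to 12 weeks, and were sampled 7 days after vectors had been given by tail vein. Each vector was a serotype 8 adeno-associated virus (AAV8) with its transgene under the thyroxine-binding globulin promoter, which acts in hepatocytes. The treatment protocol in the labels speaks of males and females. The group aHepGHRkd received Cre recombinase at 1.5 (doses are in units of 1e+11 genome copies), which deletes the floxed part of the growth hormone (GH) receptor gene in hepatocytes, with Null vector making up 2.0. The group aHepGHRkd_rIGF1 received Cre at 1.5 and rat IGF1 at 2.0, with no Null vector. The group aHepGHRkd_STAT5bCA received Cre at 1.5 and a FLAG-tagged constitutively active mouse STAT5b at 0.75, with Null vector at 1.25. Control mice received Null vector alone at 3.5, so they differ from the other groups in Cre as well as in Ghr.

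Pentraxins are ring-shaped serum proteins that bind phosphocholine, carbohydrates and DNA in the presence of calcium and recruit C1q and Fc receptors. CRP is the main acute phase pentraxin of humans, whereas in mice serum amyloid P component, the product of Apcs, is the pentraxin that rises strongly in the acute phase and Crp is only a minor reactant. Collectins join a collagen-like stalk to a sugar-binding head. Mannose-binding lectins A (Mbl1) and C (Mbl2) circulate with the MASP proteases, which cleave C4 and C2 once sugars on a microbe are bound. LBP, secreted by hepatocytes, moves lipopolysaccharide to CD14, and CD14 hands it to the receptor TLR4 with its partner LY96. GH acts on hepatocytes through JAK2 and STAT5b, and interleukin-6 and interleukin-1 drive acute phase genes through STAT3, NF-kB and C/EBP factors.

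RefSeq upstream sequences on GRCm38.p6 were matched for 4 of the 6 genes, Crp, Apcs, Mbl1 and Mbl2. They are shown because a sequence was at hand for these 4, and none was for Lbp and Cd14. The same 4 genes rose with STAT5bCA, although they differed in the other comparisons. A link between the sequences and that rise was not tested. The 250 bases before the annotated transcript start are given 5′ to 3′ on the gene's own strand.
Crp upstream (chr1:172697806-172698055, plus strand): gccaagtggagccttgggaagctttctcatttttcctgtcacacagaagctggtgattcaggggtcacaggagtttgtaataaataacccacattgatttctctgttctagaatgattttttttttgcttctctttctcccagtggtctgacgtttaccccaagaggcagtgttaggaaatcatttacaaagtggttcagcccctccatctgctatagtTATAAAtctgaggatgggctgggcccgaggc
Apcs upstream (chr1:172895055-172895304, minus strand): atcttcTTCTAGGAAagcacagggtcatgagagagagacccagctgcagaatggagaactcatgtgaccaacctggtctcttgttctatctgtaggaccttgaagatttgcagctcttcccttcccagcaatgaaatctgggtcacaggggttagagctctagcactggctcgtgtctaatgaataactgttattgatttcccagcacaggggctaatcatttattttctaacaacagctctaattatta
Mbl1 upstream (chr14:41151206-41151455, plus strand): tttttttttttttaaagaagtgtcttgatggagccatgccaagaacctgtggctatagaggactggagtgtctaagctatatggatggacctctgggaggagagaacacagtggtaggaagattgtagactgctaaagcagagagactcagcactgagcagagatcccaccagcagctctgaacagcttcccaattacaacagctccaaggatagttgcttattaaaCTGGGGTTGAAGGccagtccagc
Mbl2 upstream (chr19:30232678-30232927, plus strand): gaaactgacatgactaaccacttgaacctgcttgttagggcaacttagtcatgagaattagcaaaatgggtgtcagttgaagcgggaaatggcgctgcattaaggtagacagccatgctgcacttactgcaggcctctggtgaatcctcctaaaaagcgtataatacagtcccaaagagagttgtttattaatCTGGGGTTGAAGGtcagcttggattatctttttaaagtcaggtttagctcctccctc
Capitals mark a motif match in Crp and Apcs, and in Mbl1 and Mbl2 the longest run of bases that those genes have in common. Each window was searched on both strands for TTCNNNGAA (the STAT5 and STAT3 consensus), the same half-sites TTC and GAA with 4 bases between them, the C/EBP motif TTGCNNAA, and the TATA box TATAAA. Apcs had 1 match to TTCNNNGAA, TTCTAGGAA at 244 to 236 bases before the start, and Crp had a TATAAA at 31 to 26 bases before it. None of the 4 motifs was found in the Mbl1 and Mbl2 windows, which says only that these letters are not in those 250 bases. Among 32851 RefSeq windows of the same length, TTCNNNGAA was present in 7.02%, the form with 4 bases between the half-sites in 5.85%, TTGCNNAA in 9.56% and TATAAA in 12.4%. The windows of Mbl1 and Mbl2, which lie on chromosomes 14 and 19, shared the run CTGGGGTTGAAGG of 13 bases, starting 23 bases before the Mbl1 start and 57 bases before the Mbl2 start. That run was found in 3 of the 32851 windows, so in 1 other gene. Around it 34 of 43 aligned bases were identical, shown here in capitals.
Mbl1 stretch: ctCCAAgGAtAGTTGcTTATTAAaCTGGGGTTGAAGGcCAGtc
Mbl2 stretch: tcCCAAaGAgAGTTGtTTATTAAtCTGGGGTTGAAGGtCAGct
No statement about which factor binds follows from these letters.

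All levels below are transcript abundances scaled for transcript length and library size (TPM), and each group has a single TPM value in the authors' deposited table. Folds are the authors' edgeR ratios, and a deposited p under 0.05, read as adjusted over the table, is what higher, lower, rose, fell and called refer to. No value per animal was available here, so no SD is given, the overlap of the groups cannot be judged, and sequencing depth is unknown. Ghr stood at 55.1, 58.4, 49.4 and 180 TPM in aHepGHRkd, aHepGHRkd_rIGF1, aHepGHRkd_STAT5bCA and Control in the authors' deposited table, and the direct STAT5 target Socs2 at 1.48, 1.10, 38.3 and 17.6 TPM. Igf1, the circulating growth factor that GH induces in liver, stood at 26.2, 114, 96.4 and 143 TPM, and its ratio of 3.89 in aHepGHRkd_rIGF1 over aHepGHRkd was not called (adjusted p = 0.946, deposited). Whether reads of the rat IGF1 vector were counted for mouse Igf1 cannot be told from these values. The STAT5bCA vector carries a mouse STAT5b, so its reads may be counted for mouse Stat5b, and their share cannot be told. Stat5b stood at 10.6, 12.1, 30.0 and 8.44 TPM in the same order of groups. It rose 2.91-fold in aHepGHRkd_STAT5bCA over aHepGHRkd (adjusted p = 2.98e-39, edgeR by the authors). Because a group value covers whole liver, fewer cells of a type and less RNA per cell cannot be told apart. The labels name hepatocytes as the cell type, but RNA came from frozen whole liver, and markers of other cells were detected. Summed over the list, 13 Kupffer cell and monocyte markers came to 128, 126, 131 and 105 TPM in the same order of groups, 8 sinusoidal endothelial markers to 68.3, 76.2, 68.1 and 66.8 TPM and 12 hepatocyte markers to 135835, 143055, 147761 and 130431 TPM.

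With loss of the GH receptor in hepatocytes, 3 of the 6 genes fell and 0 rose in the authors' deposited table: Crp, Mbl1 and Lbp. Of all features, 1.14% were called lower in that comparison, 0.65% higher and 1.79% in either direction, and of the coding features that reached 1 TPM in any group 3.35% were called lower, 2.86% higher and 6.21% in either direction. Adding rat IGF1 to the knockdown gave 0 called genes of 6 by the authors' edgeR test, where 0.00792% of all features were called (0.00396% in each direction), and 0.018% of the coding features at 1 TPM or more, all of these lower. Adding active STAT5b gave 4 higher and 0 lower of 6, namely Crp, Apcs, Mbl1 and Mbl2, against 1.03% of all features called higher, 0.179% lower and 1.21% in either direction, and 2.63% higher, 0.728% lower and 3.35% in either direction among the coding features at 1 TPM or more. With a fold of at least 2 required as well, the calls were Crp in the first comparison and Crp, Apcs and Mbl2 in the last, where 0.979% and 0.821% of all features passed (0.0066% with rIGF1). With p under 0.01 they were Crp and Mbl1 in the first and Crp, Apcs and Mbl2 in the last, where 1.24% and 0.902% passed (0.00264% with rIGF1). The median log2 ratio of the 6 genes was -0.51, -0.28 and 0.80 in these comparisons, beside 0.03, -0.00 and -0.01 for the 14081 coding features that reached 0.1 TPM. All 3 comparisons use the aHepGHRkd libraries, so a value that is low in that group lowers the first ratio and raises the others.

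**Figure D1:**
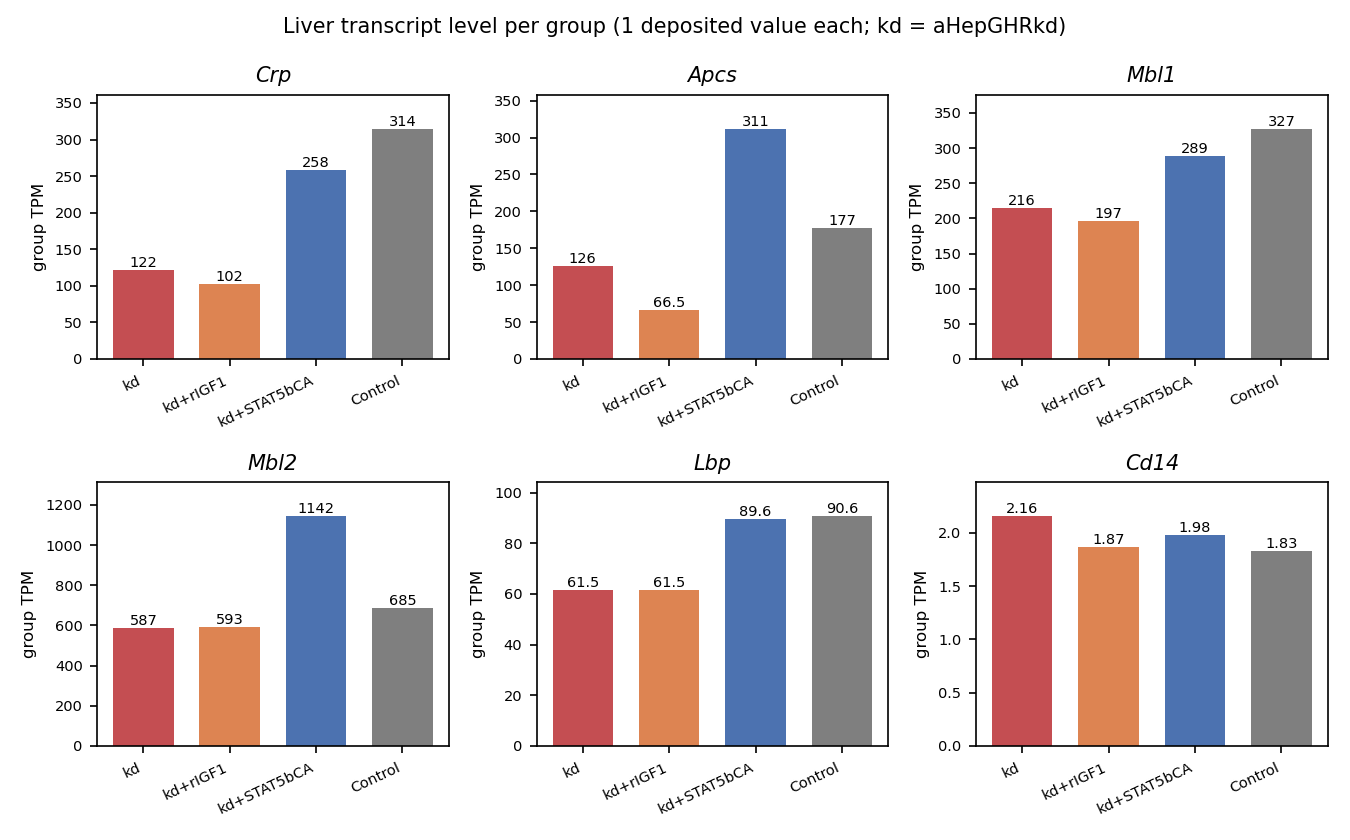
Group TPM (y axis, from 0, a separate scale per gene) of the 6 genes in aHepGHRkd (kd), aHepGHRkd_rIGF1, aHepGHRkd_STAT5bCA and Control, each bar being the single deposited value of a group of 6 mice, with no error available. The bars of Crp, Apcs, Mbl1, Mbl2 and Lbp are shorter in aHepGHRkd and aHepGHRkd_rIGF1 than in Control. Apcs and Mbl2 are highest in aHepGHRkd_STAT5bCA (311 and 1142 TPM), and Cd14 stays near 2 TPM (1.83 to 2.16).

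Crp (chromosome 1, 174628187 to 174630097 on mm9, plus strand, 2 exons) showed the largest fall of the 6 genes. It stood at 122 TPM in aHepGHRkd, 102 in aHepGHRkd_rIGF1, 258 in aHepGHRkd_STAT5bCA and 314 in Control in the authors' deposited table. Its ratio was 0.387 for aHepGHRkd over Control (log2 -1.37, adjusted p = 5.06e-22, edgeR by the authors). Among coding genes ranked by TPM it was number 914 in aHepGHRkd, 1085 in aHepGHRkd_rIGF1, 491 in aHepGHRkd_STAT5bCA and 416 in Control. STAT5bCA raised it 2.17-fold over aHepGHRkd (log2 1.12, adjusted p = 6.47e-10 in the table that the authors deposited), which brought its TPM to 82.2% of the Control value. With rIGF1 the ratio to aHepGHRkd was 0.776 (adjusted p = 0.866, the authors' deposited table), and its TPM was 32.5% of the Control value.

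Apcs (chromosome 1, 174824092 to 174825185 on mm9, minus strand, 2 exons) lies 194 kb from Crp, with 28 other features between them, and did not follow the same order of groups. It stood at 126 TPM in aHepGHRkd, 66.5 in aHepGHRkd_rIGF1, 311 in aHepGHRkd_STAT5bCA and 177 in Control in the authors' deposited table. The group with STAT5bCA was the highest, above Control, whereas Crp was highest in Control. STAT5bCA raised Apcs 2.51-fold over aHepGHRkd (log2 1.33, adjusted p = 0.000320, the authors' deposited table), the largest rise among the 6 genes, and its TPM was 175% of the Control value. That last percentage has no test, because aHepGHRkd_STAT5bCA was not compared with Control in the table. For aHepGHRkd over Control its ratio was 0.729 (adjusted p = 1) and that of aHepGHRkd_rIGF1 over aHepGHRkd was 0.483 (log2 -1.05, adjusted p = 0.243), neither called in the authors' deposited table. The rIGF1 ratio lies farther from 1 than the 0.658 of Mbl1 in aHepGHRkd over Control, which was called, and no value per animal is available to show the spread behind either.

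The collectin Mbl2 (chromosome 19, 30307418 to 30314177 on mm9, plus strand, 6 exons) had the highest level of the 6 genes in every group. It stood at 587 TPM in aHepGHRkd, 593 in aHepGHRkd_rIGF1, 1142 in aHepGHRkd_STAT5bCA and 685 in Control in the authors' deposited table. STAT5bCA raised it over aHepGHRkd, with a ratio of 2.02 (log2 1.01, adjusted p = 1.89e-14, the authors' deposited table), and it became number 99 among coding genes by TPM, against number 200 in aHepGHRkd. For aHepGHRkd over Control the authors' deposited table gives it a ratio of 0.850 (adjusted p = 0.843), so the loss of the receptor gave no call for it. Its TPM with STAT5bCA was 167% of the Control value, a description without a test.

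Mbl1 (chromosome 14, 41964745 to 41972248 on mm9, plus strand, 5 exons) was called in both of these comparisons. It stood at 216 TPM in aHepGHRkd, 197 in aHepGHRkd_rIGF1, 289 in aHepGHRkd_STAT5bCA and 327 in Control in the authors' deposited table. The authors' deposited table has it falling with the loss of the receptor (ratio 0.658, log2 -0.60, adjusted p = 0.000331) and rising 1.38-fold with STAT5bCA (log2 0.47, adjusted p = 0.0430). The rise left it at 88.5% of the Control TPM. With rIGF1 the ratios to aHepGHRkd were 0.846 for Mbl1 and 0.940 for Mbl2 (adjusted p = 1 for both, the authors' deposited table). Whether the responses of Mbl1 and Mbl2 differ from each other was not tested, since no value per animal was available here.

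Lbp (chromosome 2, 158132229 to 158158588 on mm9, plus strand, 15 exons) stood at 61.5 TPM in aHepGHRkd, 61.5 in aHepGHRkd_rIGF1, 89.6 in aHepGHRkd_STAT5bCA and 90.6 in Control in the authors' deposited table. In the authors' deposited table it fell with the loss of the receptor (ratio 0.678, log2 -0.56, adjusted p = 0.0382). The level with STAT5bCA was 98.9% of the Control TPM, but the ratio of 1.50 over aHepGHRkd (log2 0.58, adjusted p = 0.0635, the authors' deposited table) did not pass the threshold. Cd14 (chromosome 18, 36884718 to 36886469 on mm9, minus strand, 2 exons) stood at 2.16, 1.87, 1.98 and 1.83 TPM in aHepGHRkd, aHepGHRkd_rIGF1, aHepGHRkd_STAT5bCA and Control in the authors' deposited table. Its ratios were 1.17, 0.807 and 0.951 in the 3 comparisons, with adjusted p = 1 in each in the authors' deposited table. Monocytes and Kupffer cells carry CD14 on their surface, and at number 9504 to 9943 among coding genes by TPM it stood below the other 5 in every group.

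**Figure D2:**
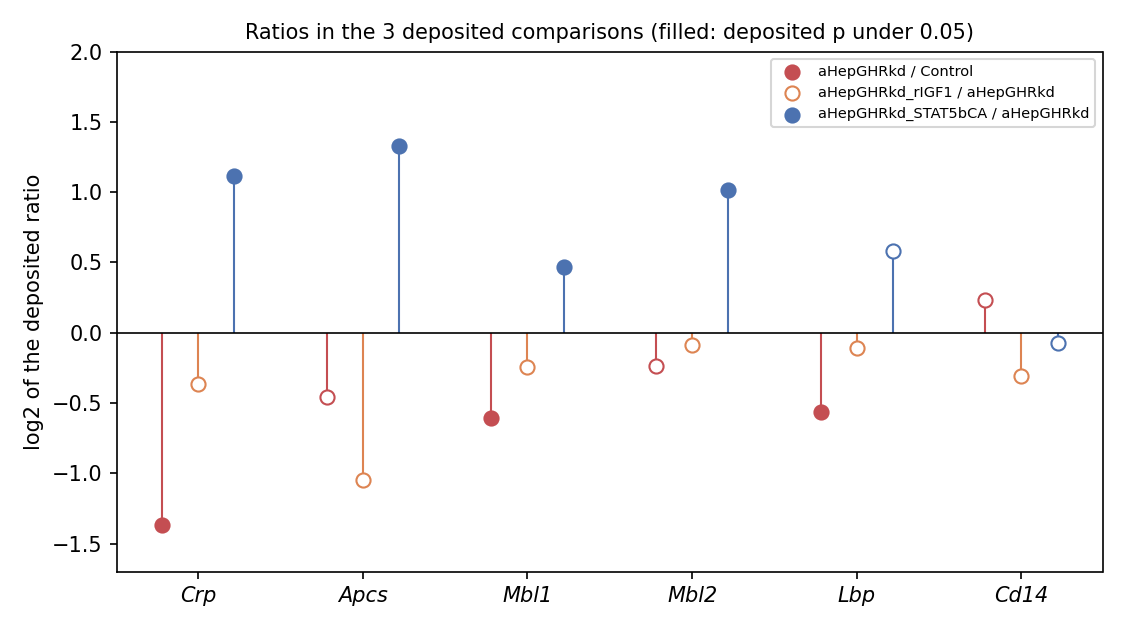
Log2 of the deposited ratio (y axis) of the 6 genes (x axis) for aHepGHRkd over Control, aHepGHRkd_rIGF1 over aHepGHRkd and aHepGHRkd_STAT5bCA over aHepGHRkd, with filled points where the deposited p was under 0.05. Crp (-1.37), Mbl1 (-0.60) and Lbp (-0.56) are filled below 0 in the first comparison, no point is filled in the second, and Apcs (1.33), Crp (1.12), Mbl2 (1.01) and Mbl1 (0.47) are filled above 0 in the last.

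The rIGF1 values need a remark on scale. The deposited ratios of that comparison lie 0.10 lower on the log2 scale than the ratios of the group TPM values, in the median over coding features. The deposited log2 ratios themselves had a median of -0.00417 over coding features that reached 0.1 TPM. The 0.10 is thus a gap between the scales and not a level of no change for deposited ratios. Mbl2 and Lbp had deposited log2 ratios of -0.09 and -0.11 and log2 ratios of the group TPM of 0.0155 and 0.00159. The deposited log2 ratios of the other genes were -1.05 for Apcs, -0.37 for Crp, -0.31 for Cd14 and -0.24 for Mbl1. An unadjusted p can be bounded if the deposited p is a Benjamini-Hochberg value over at least the 48257 features detected in either group. By that bound at least 2 of the 6 genes, Apcs and Crp, had an unadjusted p under 0.05 (at most 0.000267 for Apcs and 0.00902 for Crp). In that comparison 53 features had a deposited p as low as that of Apcs and 503 as low as that of Crp. By the same bound at least 3 of the 6 genes had an unadjusted p under 0.05 in aHepGHRkd over Control and at least 5 in aHepGHRkd_STAT5bCA over aHepGHRkd. The share of all features with an unadjusted p under 0.05 was not computed, so these counts have no background beside them. No response to rIGF1 is read from them, since 0 of the 6 genes were called in aHepGHRkd_rIGF1 over aHepGHRkd. The 8 stellate cell markers summed to 94.2 TPM in aHepGHRkd_rIGF1 and 59.7 in aHepGHRkd with 0 called, and the 9 neutrophil markers to 11.4 and 13.4 TPM with 0 called, in the authors' deposited table. Their part in these values was not tested.

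The partners of the mannose-binding lectins gave 4 calls in all. Of 8 lectin pathway proteases and substrates, 3 fell with the loss of the receptor and 0 rose, 0 were called with rIGF1, and 1 rose with STAT5bCA in the authors' deposited table. Of all features, 1.14% were called lower with the loss of the receptor and 1.03% higher with STAT5bCA. Among coding features that reached 1 TPM in any group these shares were 3.35% and 2.63%. C3, the central complement protein, fell to a ratio of 0.612 (adjusted p = 0.000115) and rose 1.79-fold with STAT5bCA (adjusted p = 1.05e-06), in the authors' deposited table. C3 thus stood at 1263, 1250, 2195 and 2051 TPM in aHepGHRkd, aHepGHRkd_rIGF1, aHepGHRkd_STAT5bCA and Control. C4a (ratio 0.352, adjusted p = 4.86e-11) and the C1 and MASP inhibitor Serping1 (0.751, adjusted p = 0.0451) also fell in the authors' deposited table, and C4a may share reads with its near copy C4b. The proteases that travel with the lectins were not called in any of the 3 comparisons, Masp1 having ratios of 0.879, 1.11 and 0.996 and Masp2 of 0.990, 0.990 and 1.00 in the authors' deposited table. The median log2 ratio of the 8 genes was -0.24, -0.11 and -0.03. Of 5 genes of the C1 complex, which pentraxins engage, the protease C1ra alone was called in the authors' deposited table, and it fell in aHepGHRkd against Control (ratio 0.726, adjusted p = 0.000410), while the list's median was 0.18, -0.03 and 0.15.

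Relatives of the 6 genes gave 1 call, a rise with STAT5bCA, where 1.03% of all features were called higher. Of 5 other pentraxins, 2 reached 0.1 TPM, and Nptx1, a neuronal pentraxin, rose 8.78-fold with STAT5bCA (adjusted p = 8.60e-10) at a low level, with 0.294 TPM in aHepGHRkd_STAT5bCA and 0.0337 in aHepGHRkd, in the authors' deposited table. Of 7 other collectins and ficolins 0 were called in any of the 3 comparisons, and Colec11, which had the highest TPM of the list in any group (36.0 in aHepGHRkd_rIGF1), had ratios of 1.09, 1.28 and 0.937 (adjusted p = 1 in each, the authors' deposited table). In aHepGHRkd_STAT5bCA Fcna, a ficolin, was above it, at 27.2 against 23.5 TPM. Nptx1 reached 0.1 TPM only in aHepGHRkd_STAT5bCA, so no median is given for the pentraxins. The median log2 ratios of the collectins and ficolins that reached 0.1 TPM were -0.12, 0.16 and 0.10, and over all 7 genes they were -0.15, -0.02 and 0.02, so the direction with rIGF1 turned with the minimum.

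On the lipopolysaccharide side, 1 of 10 genes listed with the receptor complex and its signalling was called, and neither Tlr4 nor Ly96 was. The call was a rise with STAT5bCA, where 1.03% of all features were called higher and 2.63% of the coding features that reached 1 TPM. Tlr2, the receptor for bacterial lipoproteins, rose 1.88-fold with STAT5bCA (adjusted p = 0.00716), with 2.17 TPM in aHepGHRkd_STAT5bCA and 1.17 in aHepGHRkd, in the authors' deposited table. Tlr4 lay between 0.218 and 0.275 TPM and Ly96 between 4.46 and 5.68 TPM over the 4 groups, with adjusted p = 1 in every comparison in the authors' deposited table. The list's median log2 ratio was 0.07, -0.10 and -0.13 in the order of comparisons used above. Of 6 other lipopolysaccharide and peptidoglycan binding proteins and of 6 pentraxin receptors, 0 were called in any comparison. Their most abundant genes were Pglyrp2, a peptidoglycan amidase made in liver (87.0, 87.3, 76.5 and 94.2 TPM in aHepGHRkd, aHepGHRkd_rIGF1, aHepGHRkd_STAT5bCA and Control), and the inhibitory Fc receptor Fcgr2b (17.5, 19.7, 16.3 and 16.1 TPM), in the authors' deposited table. The medians were 0.43, -0.07 and -0.01 for the binding proteins (-0.14 for the last when genes had to reach 1 TPM) and 0.17, 0.07 and 0.15 for the receptors.

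Among other acute phase proteins of the liver, every gene called when the receptor was lost went in the direction opposite to Crp, Mbl1 and Lbp. Of 23, 12 rose, 0 fell and 11 were not called, and their median log2 ratio was 0.65. Of all features 0.65% were called higher, and of the coding features that reached 1 TPM in any group 2.86%. In the authors' deposited table the serum amyloid gene Saa2 rose 3.17-fold (adjusted p = 7.73e-07), with 5463 TPM in aHepGHRkd and 1736 in Control, and the siderophore binder Lcn2 rose 4.36-fold (adjusted p = 1.48e-10). The other risers were Saa1 (2.29), Orm2 (3.96), Orm3 (3.16), Hp (1.46), Itih4 (1.60), Serpina3n (1.81), Serpina3m (1.59), Hamp (1.57), Steap4 (2.67) and Il1rn (2.57), by their ratios in the authors' deposited table, with adjusted p between 5.90e-13 and 0.0190. Saa1 with Saa2, the Orm genes and the Serpina3 genes have close copies, and shared reads could alter their separate values. A difference between Crp and any of these genes in how it responded was not tested.

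With STAT5bCA, 1 of the 23 rose and 3 fell, with a median of -0.23. Of all features 1.03% were called higher and 0.179% lower in that comparison. Among coding features that reached 1 TPM in any group these shares were 2.63% and 0.728%. Ceruloplasmin, Cp, rose 1.78-fold (adjusted p = 7.77e-12), and Orm2 (ratio 0.479, adjusted p = 0.000881), the iron hormone hepcidin Hamp (0.603, adjusted p = 0.000818) and Steap4 (0.496, adjusted p = 0.0223) fell, in the authors' deposited table. With rIGF1 the authors' deposited table has 1 of the 23 lower, Orm1 (ratio 0.388, adjusted p = 0.0499), and the median was -0.40. There 0.00396% of all features were called lower, and 0.018% of the coding features at 1 TPM or more. Among 16 receptors and transcription factors of the acute phase response, 1 fell with the loss of the receptor and 1 rose with STAT5bCA, beside 1.14% and 1.03% of all features. For coding features at 1 TPM or more these shares were 3.35% and 2.63%. Both calls were Onecut1, a liver transcription factor also known as HNF6. Onecut1 stood at 3.45, 4.13, 8.78 and 9.72 TPM in aHepGHRkd, aHepGHRkd_rIGF1, aHepGHRkd_STAT5bCA and Control in the authors' deposited table. Its deposited ratios were 0.345 for aHepGHRkd over Control (adjusted p = 0.000135) and 2.64 for aHepGHRkd_STAT5bCA over aHepGHRkd (adjusted p = 0.000260). The list's median log2 ratio was -0.07, 0.02 and -0.09. Cebpa was at a ratio of 0.713 (adjusted p = 0.0546) and Stat3 at 1.12 (adjusted p = 1) in aHepGHRkd over Control, in the authors' deposited table. Of the markers of other cells, 0 of 13 for Kupffer cells and monocytes, 0 of 9 for neutrophils, 0 of 8 for sinusoidal endothelium and 0 of 8 for stellate cells were called in any comparison. Their median log2 ratios in aHepGHRkd over Control were 0.25, 0.32, 0.03 and 0.16, the neutrophil value being 0.03 when genes had to reach 1 TPM and also with no minimum, and the part of these cells in the acute phase values was not tested. Of 12 hepatocyte markers, Ttr rose (ratio 1.38) and Trf (0.598) and Tat (0.683) fell with the loss of the receptor, and Trf rose 2.03-fold with STAT5bCA, in the authors' deposited table. Of all features 0.65% were called higher and 1.14% lower with the loss of the receptor, and 1.03% higher with STAT5bCA. For coding features at 1 TPM or more these shares were 2.86%, 3.35% and 2.63%.

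**Figure D3:**
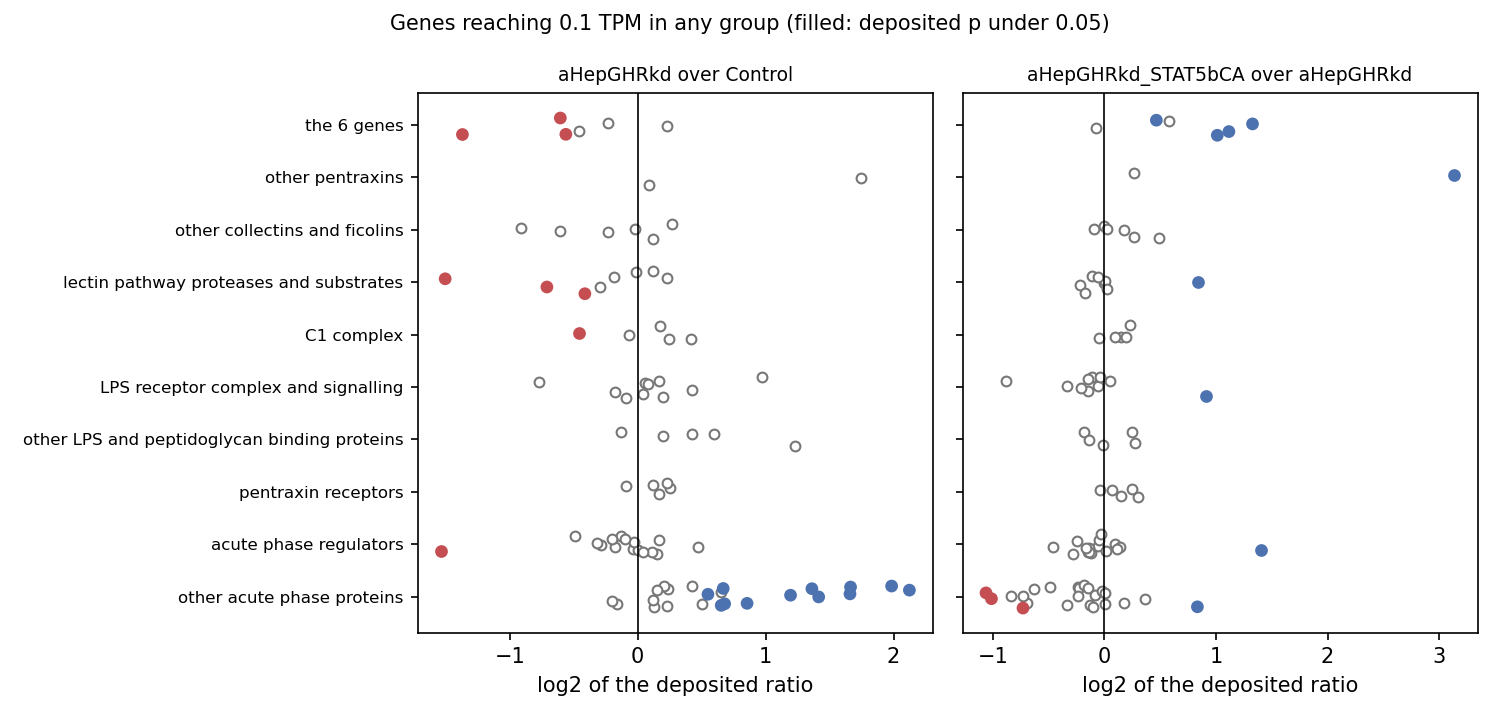
Log2 of the deposited ratio (x axis) of the 6 genes and of the genes of 9 lists (rows, with vertical scatter only to separate points) for aHepGHRkd over Control (left) and aHepGHRkd_STAT5bCA over aHepGHRkd (right), for genes that reached 0.1 TPM in any group. Filled points had a deposited p under 0.05, blue for higher and red for lower: on the left 3 of the 6 genes are filled below 0 and 12 other acute phase proteins above 0, and on the right 4 of the 6 genes are filled above 0.

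Some noncoding features beside these genes were called as well. Within 10 kb of the 6 genes or overlapping them the table lists 23 other features, 22 of them noncoding, of which 3 were called in aHepGHRkd over Control, 0 with rIGF1 and 2 with STAT5bCA in the authors' deposited table. Of all features, 1.79%, 0.00792% and 1.21% were called in these comparisons. NC_INTRA_C1_838, which spans Crp on the same strand (chromosome 1, 174580606 to 174716462), had a ratio of 0.497 in aHepGHRkd over Control (adjusted p = 2.34e-05) and of 1.65 with STAT5bCA (adjusted p = 0.0162), in the authors' deposited table. It stood at only 0.178, 0.135, 0.286 and 0.356 TPM in aHepGHRkd, aHepGHRkd_rIGF1, aHepGHRkd_STAT5bCA and Control, and because it overlaps Crp, reads of the 2 features may not be separable. NC_INTER_C19_32181 lies on the opposite strand with its nearer edge 86 bases past the end of Mbl2 (chromosome 19, 30314264 to 30314498). It stood at 6.07, 6.88, 15.1 and 12.9 TPM in the same order of groups, with a ratio of 0.470 in aHepGHRkd over Control (adjusted p = 0.00211) and of 2.52 with STAT5bCA (adjusted p = 1.89e-06), in the authors' deposited table. Mbl2 itself had ratios of 0.850 and 2.02 in these comparisons, and no source used here states whether strand entered the counting. In the authors' deposited table NC_INTER_C14_25371, 8247 bases past Mbl1 on its strand, had a ratio of 0.453 in aHepGHRkd over Control (adjusted p = 1.10e-08) and 1.32 with STAT5bCA (adjusted p = 0.843).

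The coding genes whose pattern was most like each member were found by the Euclidean distance over the 3 deposited log2 ratios, among 10471 coding genes that reached 1 TPM in every group. The comparisons share the aHepGHRkd group, so this is a description over 4 groups. For Crp they were Serpina11 (distance 0.30, ratios 0.375, 0.712 and 2.61), Hsd17b2 (0.36) and Cyp2c67 (0.38), in the authors' deposited table. For Apcs they were Fgl1 (distance 0.37, ratios 0.815, 0.461 and 2.00), Gbp11 (0.56) and Slc37a1 (0.61). Mbl1 lay nearest to Qsox1 (distance 0.07, ratios 0.686, 0.865 and 1.38), Cebpe (0.09) and Pafah1b3 (0.10), and Mbl2 to Haus5 (distance 0.17), Cp (0.19, ratios 0.868, 0.904 and 1.78) and E2f1 (0.21). Lbp lay nearest to Zfp113 (distance 0.03), Pkdcc (0.06) and Aqp11 (0.08, ratios 0.697, 0.921 and 1.57), in the authors' deposited table. A call was not required of these similar genes, and Slc37a1, Pafah1b3 and E2f1 had none in any of the 3 comparisons. The nearest gene to Apcs and the nearest to Crp lay farther away than the nearest to Mbl1, Mbl2 or Lbp.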

How the data were processed

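One table was used, a summary by the authors of 24 libraries in 4 groups of 6, with features of exon-collapsed gene models on mm9, per the file headers. It lists 75798 features, and 75794 were read, since 4 lines were empty. Alignment and counting tools named in the submitters' processing notes are STAR and featureCounts; the tool versions and the strand setting were not given in the sources used here. RNA was polyA-selected, per the labels' protocols. The authors deposited a single TPM value for each group, which gives no depth. The aHepGHRkd value is repeated in 2 further columns, which were not used. For each comparison the authors deposited a linear ratio (fold) between 2 groups and its p-value, both from edgeR according to the header. The header states no adjustment of the p-value. It was read as adjusted by the Benjamini-Hochberg method because 69174, 75054 and 72384 of the deposited values are exactly 1 in the comparisons of aHepGHRkd with Control, aHepGHRkd_rIGF1 with aHepGHRkd and aHepGHRkd_STAT5bCA with aHepGHRkd.

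Coding features (20879) are those whose gene type includes an NM accession. Genes were matched by symbol in capitals, and all 136 entries of 14 gene lists were found. Values per library were not available here, so no model was fitted, no replicate could be left out, and p-values are the authors' own. A list is described by its counts and by the median log2 ratio of its genes that reached 0.1 TPM in any group. The genes and lists were chosen with earlier results of these data known. Named list genes are those called in any comparison or, where a list had none, its most abundant gene; Masp1, Masp2, Tlr4, Ly96, Fcna, Cebpa and Stat3 were named after their values were seen. The motifs and the shared run were also chosen after the data were seen. The functions that count calls, rank similar genes and search motifs were tested on simulated data. Python 3.11.15, pandas 2.3.3 and numpy 2.4.6 were used. The closing section gives the effect of a TPM ratio, a pseudocount of 1 TPM, a p threshold of 0.01 and a fold minimum of 2.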

Additional observations from a re-analysis of the deposited data

How the results depend on the processing

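No paired analysis was possible because the table holds 1 value per group, and for the same reason neither a replicate block nor leaving out replicates was run. With a fold of at least 2 required, 1 gene in place of 3 was lower in aHepGHRkd than in Control, Crp, since Mbl1 (log2 -0.60) and Lbp (-0.56) changed less, and 3 in place of 4 were higher with STAT5bCA, without Mbl1 (0.47). With a p threshold of 0.01, Lbp in aHepGHRkd over Control and Mbl1 in aHepGHRkd_STAT5bCA over aHepGHRkd lost their calls, leaving 2 lower and 3 higher. With the ratio of group TPM in place of the deposited ratio, 16 of the 18 values kept their direction. Mbl2 (log2 0.0155, and 0.0154 with a pseudocount of 1) and Lbp (0.00159, and 0.00156 with it) turned in aHepGHRkd_rIGF1 over aHepGHRkd, neither of them called. Among coding features reaching 1 TPM, the shares called in either direction were 6.21%, 0.018% and 3.35%, in place of 1.79%, 0.00792% and 1.21% of all features. Of the list medians, 3 of 39 moved by over 0.1 when genes had to reach 1 TPM and 7 of 42 when no minimum was set. The numbers of counts behind each value and the spread between animals are unknown here, which limits how firmly any gene without a call can be read.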
